A study of Mus musculus with 16 samples.

Results

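RGS proteins and Ras-like small GTPases are 2 sets of molecules that act in signalling from cell surface receptors, and 6 of their genes, Gem, Rasl11b, Rasd1, Rgs2, Rgs4 and Rgs16, were followed here in mouse suprachiasmatic nucleus (SCN) slices given vasoactive intestinal peptide (VIP). They are 6 of the 10620 genes that could be named on the arrays and are read by 7 probes, 1 for each gene and 2 for Rasl11b. The genes were chosen by their measured values, namely their levels over the 4 groups and their differences between CT12 VIP and CT12 Veh, between CT16 VIP and CT12 VIP and between CT12 Veh and CT10. Every comparison of the 4 groups for these genes is therefore given as a description, without a p-value. The number of the 6 genes past the threshold of the fit over all probes is given once, beside the share of all probes, and nothing is read from it. How passing depended on the processing is described at the end, and nothing is read from that either.

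An RGS (regulator of G protein signalling) protein speeds up GTP hydrolysis on the alpha subunit of a heterotrimeric G protein and so shortens the signal of the receptor above it. Ras-like GTPases are monomeric switches that are active with GTP bound. Gem belongs to the RGK group, whose members bind the beta subunits of voltage-gated calcium channels and reduce their current. In the SCN, the circadian pacemaker of the hypothalamus, VIP acts mainly through the receptor VPAC2, which couples to Gs and raises cAMP, and cAMP signalling reaches genes through the cAMP response element (CRE).

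The slices were organotypic cultures of the SCN from C57BL/6J pups of postnatal day 8 to 11, and RNA from 16 samples was read on 16 Illumina mouse arrays, 4 in each of 4 groups. CT10 samples were untreated and were collected at circadian time (CT) 10. CT12 Veh samples received vehicle (air medium) at CT10 and were collected 2 h later, at CT12, CT12 VIP samples received VIP in place of vehicle, and CT16 VIP samples were collected 6 h after VIP, at CT16. The sample labels give the VIP concentration as 1 µM, whereas the study's methods state a higher one. The series text places the 6 h group at CT12, whereas the sample labels and the study's methods give CT16, which was used. No vehicle group was collected at CT16, so time after VIP and circadian time cannot be told apart in any comparison of CT16 VIP. Samples of CT10 received no addition, so circadian time and the addition itself cannot be told apart in any comparison with CT10. A slice holds SCN neurons, glia and adjoining tissue, the labels do not say whether slices came from separate animals, and p-values therefore measure the spread between these samples only. In such bulk RNA, fewer cells that express a gene and less of its RNA per cell cannot be told apart.

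Promoter sequences are shown to set out which genes carry the core of a cAMP response element close to the start, since VIP signals through cAMP. A sequence was found in RefSeq (build GRCm38.p6) for 4 of the 6 genes, and none for Gem or Rasd1, which were not searched. The 250 bases before the annotated start are printed 5′ to 3′ on the strand of the gene, with each CRE half-site in capitals. The half-site is TGACG, or CGTCA where it lies on the opposite strand. Rgs2 and Rgs4 are on chr1:144004150-144004399 and chr1:169747643-169747892, both on the minus strand, Rgs16 is on chr1:153740103-153740352 and Rasl11b on chr5:74195076-74195325, both on the plus strand.
Rgs2: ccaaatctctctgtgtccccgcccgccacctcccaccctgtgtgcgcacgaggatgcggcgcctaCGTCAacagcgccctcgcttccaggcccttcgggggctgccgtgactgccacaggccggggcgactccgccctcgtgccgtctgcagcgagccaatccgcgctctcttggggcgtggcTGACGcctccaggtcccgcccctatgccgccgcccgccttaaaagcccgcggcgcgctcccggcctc
Rgs4: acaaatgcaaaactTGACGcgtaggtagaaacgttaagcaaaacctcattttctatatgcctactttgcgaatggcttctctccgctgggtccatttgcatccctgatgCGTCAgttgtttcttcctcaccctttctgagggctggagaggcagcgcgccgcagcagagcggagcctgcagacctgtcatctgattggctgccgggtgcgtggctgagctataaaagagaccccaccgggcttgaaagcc
Rgs16: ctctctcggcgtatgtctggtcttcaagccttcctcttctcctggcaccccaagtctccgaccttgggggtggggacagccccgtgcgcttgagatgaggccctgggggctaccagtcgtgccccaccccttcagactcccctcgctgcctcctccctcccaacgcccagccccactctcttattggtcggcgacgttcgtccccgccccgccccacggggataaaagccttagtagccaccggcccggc
Rasl11b: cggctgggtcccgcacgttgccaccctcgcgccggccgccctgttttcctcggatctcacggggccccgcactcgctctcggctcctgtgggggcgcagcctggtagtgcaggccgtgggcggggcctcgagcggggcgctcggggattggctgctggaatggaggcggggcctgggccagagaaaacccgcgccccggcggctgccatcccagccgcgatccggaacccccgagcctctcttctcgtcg

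In Rgs2 the half-sites begin 185 and 67 bases before the start, and in Rgs4 they begin 236 and 141 bases before it. Each of these 2 promoters holds 1 half-site on either strand, and Rgs4 also holds TATAAA 31 bases before the start. Neither Rgs16 nor Rasl11b holds a half-site in this window. Over the 32851 promoter windows of the same length in the table, 17.8% held at least 1 half-site and 3.9% held 2 or more, counting both strands. The full palindrome TGACGTCA, which contains the half-site, was in 1.55%, the E-box CACGTG in 6.02% and TATAAA in 12.4% of windows. Neither the palindrome nor the E-box was found in the 4 windows printed. A match in letters is a description and not evidence of a bound site.

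Array quality varied. Between 8019 and 16923 probes per array were detected, meaning a detection p, the chance of so bright a signal among negative control probes, of at most 0.01. Fewer than 10000 probes were detected on 4 arrays, replicates 3 and 4 of CT16 VIP and replicate 1 of both CT12 groups. The 2 CT16 VIP arrays among them also had the highest median raw signals, 149.7 and 153.5, against 75.7 on CT16 VIP 2. Correlations between arrays ran from 0.927 to 0.983 and no pair was identical. Of 12 markers of SCN neurons, 10 had a probe in the normalised table: Avp, Vip, Rora and Rorb were detected on all 16 arrays, and Six6 on 1. Gfap and Mbp, markers of astrocytes and oligodendrocytes, were also detected on all 16.

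Levels below are the globally normalised values deposited by the authors, on a variance-stabilised (VST) scale close to log2, in the order of the replicate numbers.

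**Figure D1:**
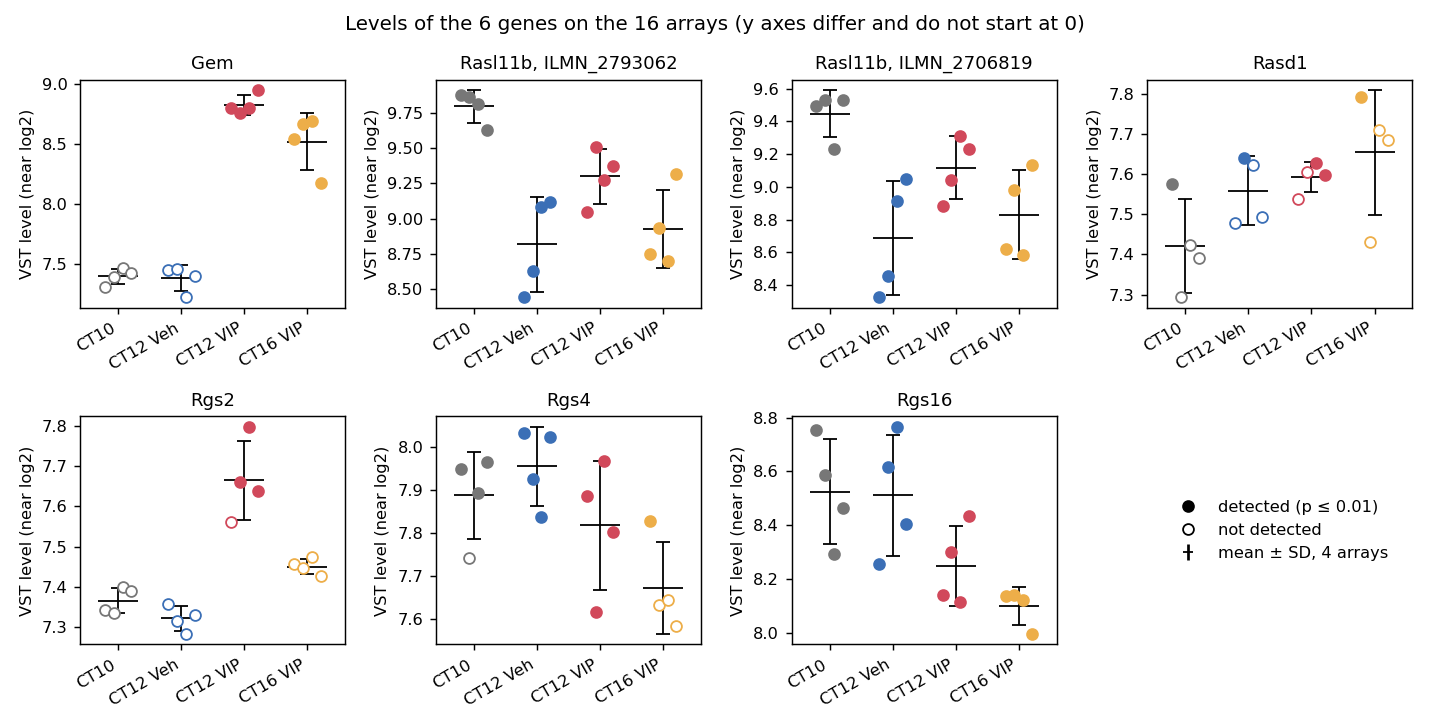
VST level (near log2) of the 7 probes on each of the 16 arrays, by group; filled points were detected, open points were not, and the bars give mean ± SD of 4 arrays. Gem is at 7.22 to 7.46 on the 8 arrays without VIP and at 8.17 to 8.95 on the 8 arrays with it, whereas Rasd1 overlaps between all neighbouring groups.

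Gem showed the clearest separation of the 6 genes. Its level was 7.31, 7.39, 7.46 and 7.42 in CT10 and 7.45, 7.46, 7.22 and 7.40 in CT12 Veh, and it was detected on none of these 8 arrays. With VIP it was 8.80, 8.75, 8.80 and 8.95 at CT12 and 8.54, 8.66, 8.69 and 8.17 at CT16, and it was detected on all 8. Every array with VIP was thus above every array without it. On the raw scale the CT12 VIP arrays read 410.5 to 510.9 and the CT12 Veh arrays 81.4 to 108.0.

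In the table that the authors normalised for CT12 VIP and CT12 Veh alone, Gem was at least 2.27-fold higher in CT12 VIP. The change is a bound, because no vehicle array detected Gem, and is set against the lowest signal that counts as detected on each vehicle array. The values differed between CT12 VIP and CT16 VIP as well, by -0.31 (SE 0.10), with every CT16 VIP array below every CT12 VIP array. Array CT16 VIP 4, with 8019 detected probes the fewest, was the lowest of the 8 (8.17), and without the arrays of few detected probes the difference was -0.23 (SE 0.09).

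For the pairs of groups without a deposited pairwise table, raw signals were background-corrected and quantile-normalised with neqc, which compresses dim probes less than VST, so sizes on these scales are not comparable. On this log2 neqc scale the bound for Gem in CT16 VIP was at least 3.73-fold higher against vehicle and at least 3.71-fold higher against untreated slices. For CT12 VIP it was at least 5.22-fold higher against untreated slices. It met the filter on detection only through the arrays with VIP, so some excess was built into its being measured.

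Rasl11b, a Ras-like GTPase that is less well characterised, stood highest in the untreated slices. Its brighter probe (ILMN_2793062) read 9.88, 9.87, 9.82 and 9.63 in CT10 and 8.44, 8.63, 9.08 and 9.12 in CT12 Veh. It read 9.05, 9.51, 9.27 and 9.37 in CT12 VIP and 8.75, 8.94, 8.70 and 9.31 in CT16 VIP. All 4 CT10 arrays lay above the other 12, and CT12 Veh spread most widely, with replicates 1 and 2 low and 3 and 4 high. Rasl11b was detected on all 16 arrays by both probes.

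The dimmer probe (ILMN_2706819) gave the same order of groups. Its group means were 9.45 ± 0.14 (SD, n = 4) in CT10, 9.12 ± 0.19 in CT12 VIP, 8.83 ± 0.27 in CT16 VIP and 8.69 ± 0.35 in CT12 Veh, against 9.80 ± 0.12, 9.30 ± 0.19, 8.93 ± 0.28 and 8.82 ± 0.34 for the brighter one. Its CT10 array 4, at 9.23, fell among the CT12 VIP arrays. Over the 16 arrays the probes correlated with r = 0.93, across samples that differ in group and in array quality.

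**Figure D2:**
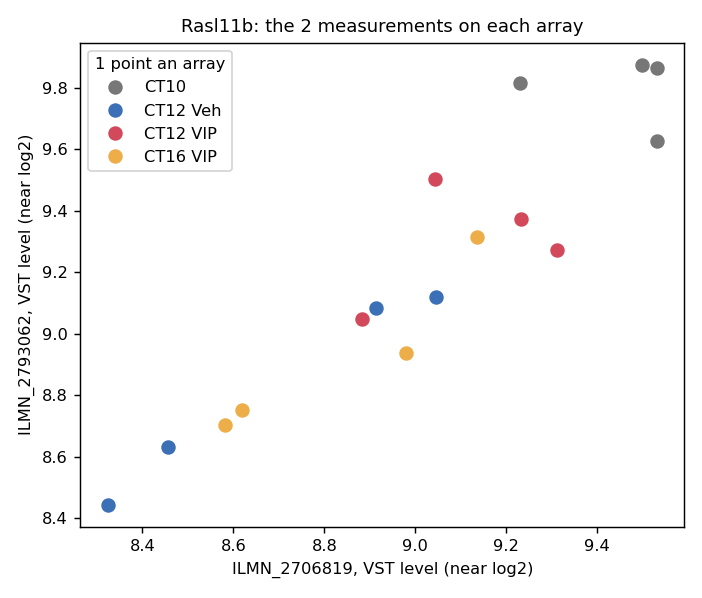
VST level (near log2) of Rasl11b by its 2 probes, 1 point an array, coloured by group. The probes rank the arrays alike (r = 0.93), with the 4 CT10 arrays at the top on the brighter probe and CT12 Veh 1 and 2 at the bottom on both.

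In the pairwise table Rasl11b was higher in CT12 VIP than in CT12 Veh by 0.49 (SE 0.13) on the brighter probe and 0.44 (SE 0.13) on the dimmer one, with overlapping arrays on both. From CT12 VIP to CT16 VIP the differences were -0.37 (SE 0.13) and -0.29 (SE 0.12), again with overlap. On the neqc scale, CT12 Veh differed from CT10 by -1.25 (SE 0.22) on the brighter probe and by -1.04 (SE 0.24) on the dimmer one, and the groups did not overlap on either. The brighter probe ranked 3rd by size among 16847, in a comparison that helped to choose the genes, so nothing is read from this rank. Without CT12 Veh 1, the group's lowest array and one with few detected probes, the differences were -1.06 and -0.85.

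The difference of Rasl11b between CT16 VIP and CT10 was -1.10 (SE 0.21) on the brighter probe and -0.83 (SE 0.22) on the dimmer one, on the neqc scale. On both probes all 4 CT16 VIP arrays lay below all 4 CT10 arrays. With each of the 8 arrays left out in turn the difference ran from -1.28 to -0.998 and from -0.98 to -0.71. Against CT12 Veh, CT16 VIP differed by 0.16 (SE 0.27) and 0.23 (SE 0.28), each smaller than its error.

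Rasd1, also called Dexras1, is a Ras-like GTPase inducible by glucocorticoid that modulates the response of the mouse SCN clock to light. It was near the limit of detection, on 5 of 16 arrays. Untreated slices read 7.58, 7.29, 7.42 and 7.39, and vehicle slices 7.48, 7.64, 7.62 and 7.49. After VIP the levels were 7.54, 7.60, 7.63 and 7.60 at 2 h and 7.79, 7.43, 7.71 and 7.68 at 6 h. Neighbouring groups overlapped throughout, and only CT16 VIP 1 reached 7.79. CT12 VIP and CT12 Veh differed by 0.03 (SE 0.06) and CT16 VIP and CT12 VIP by 0.07 (SE 0.08) on the VST scale. The neqc differences of CT16 VIP were 0.32 (SE 0.28) against CT12 Veh and 0.78 (SE 0.29) against CT10. CT12 VIP differed from CT10 by 0.66 (SE 0.21), and by 0.52 to 0.87 with each of the 8 arrays left out in turn. The largest value was without CT10 1, the only untreated array that detected Rasd1, so it is set against undetected signals.

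Rgs2, which acts on Gq and also inhibits adenylyl cyclase, was the one of the 3 RGS genes that was higher after VIP. It was dim. Its level was 7.34, 7.34, 7.40 and 7.39 in CT10 and 7.36, 7.32, 7.28 and 7.33 in CT12 Veh, undetected on all 8 arrays. In CT12 VIP it was 7.56, 7.66, 7.80 and 7.64, detected on 3 arrays, and in CT16 VIP it was 7.46, 7.45, 7.47 and 7.43, detected on none. The 4 CT12 VIP arrays were above the other 12, and the 4 CT16 VIP arrays lay between them and the 8 without VIP. The raw signals were 131.0 to 163.2 in CT12 VIP, 79.0 to 90.7 in CT12 Veh, 98.0 to 131.8 in CT10 and 77.1 to 154.5 in CT16 VIP. On this scale CT10 and CT16 VIP overlapped CT12 VIP, and CT12 VIP 1, at 157.3, was undetected. The order among the groups other than CT12 VIP rests on undetected values.

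The mean level of Rgs2 was 7.66 ± 0.10 (SD, n = 4) in CT12 VIP, 7.45 ± 0.02 in CT16 VIP, 7.37 ± 0.03 in CT10 and 7.32 ± 0.03 in CT12 Veh. No difference or fold is given, since the signal in the other 3 groups is only known to be below the limit of detection and the CT12 VIP mean was not above that limit. Rgs2 was detected neither in CT16 VIP nor in CT12 Veh or CT10, so no comparison of CT16 VIP with these groups was fitted for it.

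Rgs4, which acts on Gi/o and Gq, was lowest in CT16 VIP. Untreated slices read 7.95, 7.74, 7.89 and 7.97, and vehicle slices 8.03, 7.93, 7.84 and 8.02. After VIP the levels were 7.89, 7.62, 7.97 and 7.80 at 2 h and 7.83, 7.63, 7.64 and 7.58 at 6 h. In the same order of groups it was detected on 3, 4, 4 and 1 of 4 arrays. CT12 VIP overlapped all other groups, whereas all CT16 VIP arrays were below all CT12 Veh arrays. The pairwise differences were -0.15 (SE 0.08) for CT12 VIP against CT12 Veh and -0.14 (SE 0.08) for CT16 VIP against CT12 VIP.

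On the neqc scale Rgs4 differed by -0.89 (SE 0.22) between CT16 VIP and CT12 Veh. Without the arrays with few detected probes the difference was -0.59 (SE 0.26). Raw signals on the 2 such arrays of CT16 VIP, 194.6 and 181.6, lay within the CT12 Veh range of 175.5 to 219.8, while their median signals were the highest of all arrays. The part of background in this difference was not tested. Against CT10 Rgs4 differed by -0.70 (SE 0.23), with overlapping arrays.

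Rgs16, which acts on Gi/o and Gq and has a daily rhythm in the mouse SCN, was the brightest of the RGS members and was detected on all 16 arrays. Untreated slices read 8.75, 8.59, 8.29 and 8.47, and vehicle slices 8.26, 8.62, 8.77 and 8.41. After VIP the levels were 8.14, 8.30, 8.12 and 8.44 at 2 h and 8.14, 8.14, 8.12 and 7.995 at 6 h. All CT16 VIP arrays were below all CT10 and CT12 Veh arrays, and CT12 VIP overlapped its neighbours. The means were 8.52 ± 0.20 (SD, n = 4) without treatment and 8.51 ± 0.22 with vehicle, against 8.25 ± 0.15 at 2 h and 8.10 ± 0.07 at 6 h after VIP.

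The pairwise differences of Rgs16 were -0.27 (SE 0.10) for CT12 VIP against CT12 Veh and -0.15 (SE 0.08) for CT16 VIP against CT12 VIP, and CT12 Veh differed from CT10 by -0.03 (SE 0.22) in neqc values. CT16 VIP differed by -0.77 (SE 0.20) from CT12 Veh and by -0.80 (SE 0.20) from CT10 on the neqc scale. With each of the 8 arrays left out in turn these differences ran from -0.91 to -0.63 and from -0.93 to -0.67.

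**Figure D3:**
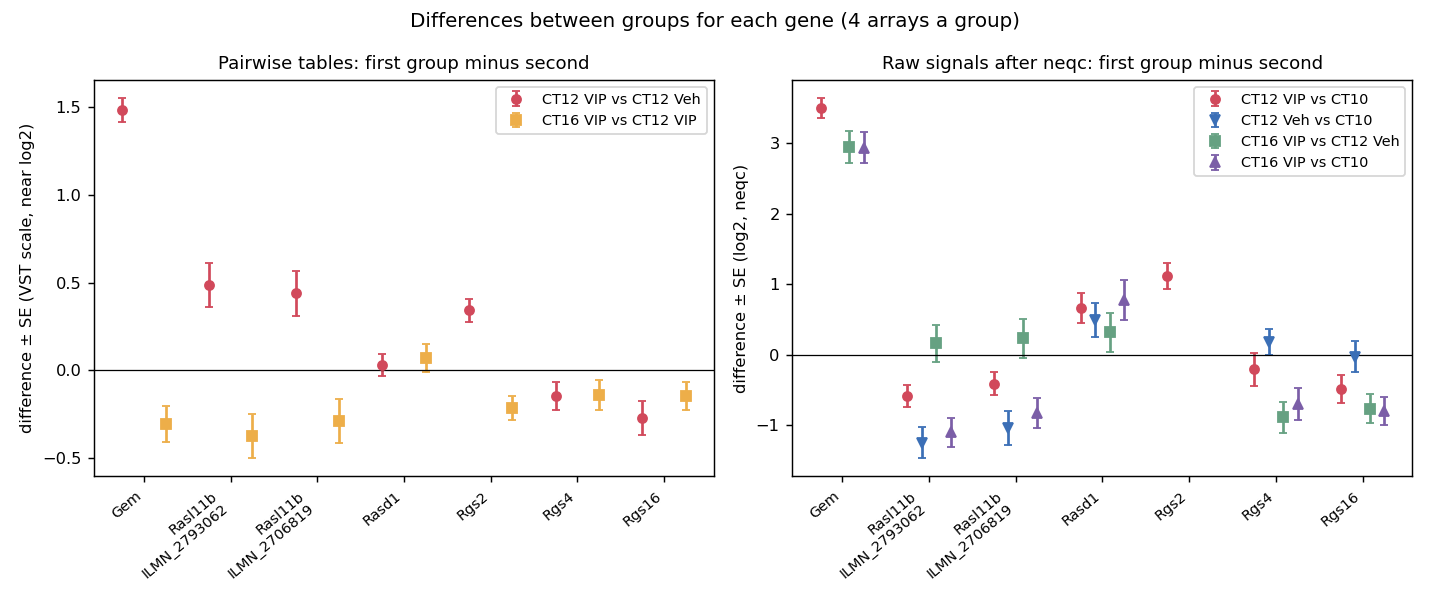
Difference between groups (first minus second) of each probe with its standard error, on the VST scale for the pairwise tables (left) and the log2 neqc scale (right). Differences of Gem and Rgs2 from groups that did not detect them are plotted as measured, with the undetected side at background. Gem stands apart in every comparison with a group that had no VIP, Rasl11b lies below 0 in the 3 comparisons with CT10, and Rgs4 and Rgs16 lie below 0 in both comparisons of CT16 VIP on the right.

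Counted together, 3 of the 6 genes had a probe past an adjusted p of 0.05 between CT12 VIP and CT12 Veh (Gem, Rgs2 and, on 1 of its probes, Rasl11b), where 4.19% of all 17605 probes passed. None did between CT16 VIP and CT12 VIP, where 1.79% of 19110 passed. Between CT12 VIP and CT10, Gem and Rgs2 passed, against 2.57% of 17658. In both comparisons Gem and Rgs2 met the filter on detection only through CT12 VIP. The difference of Rasl11b on its brighter probe between CT12 VIP and CT12 Veh ran from 0.36 to 0.59 with an array left out, and its count depended on single arrays: it was not past the threshold once CT12 VIP 2, 3 or 4 or vehicle array 1 or 2 was left out. Between CT12 Veh and CT10 no probe passed, 0% of 16847 in limma, although 1130 had an unadjusted p under 0.05. With the raw signals quantile-normalised without background correction, and with the global values, 1 probe passed there, the brighter one of Rasl11b. Of 5 measured genes, 1 (Gem) passed between CT16 VIP and CT12 Veh, where 2.21% of 18724 probes did. Gem and Rasl11b, 2 of 5, passed between CT16 VIP and CT10, where 2.37% of 18763 probes did. The 2 comparisons share the CT16 VIP arrays. Nothing is read from any of these counts, since the genes were chosen with their levels in all 4 groups known.

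The 6 genes followed different courses over the 16 arrays. Gem and Rgs2 were the most alike (r = 0.84), Gem and Rgs16 ran in opposite directions (r = -0.69), and Rgs4 and Rgs16, both lowest in CT16 VIP, correlated at 0.36. These correlations describe arrays that share group and array quality. Among 12838 probes detected on at least 4 arrays, the genes most like Gem were Tinf2 (r = 0.98), Aff1 (r = 0.98) and Ptbp1 (r = 0.965). Tinf2 averaged 8.46 at 2 h and 8.16 at 6 h after VIP, against 7.37 with vehicle and 7.32 without treatment, and so had the same order of treated groups as Gem. The genes most like Rgs2 were Adamts1 (r = 0.93), Spdya (r = 0.92) and Gmpr2 (r = 0.92), all higher in CT12 VIP than in CT16 VIP. Rgs2 itself was detected on 3 of 16 arrays, so most of its values in all these correlations were undetected.

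The closest genes to the others were less alike. Rasl11b was followed by Unc5c (r = 0.85), Extl3 (r = 0.83) and Gatad2b (r = 0.79), and Rasd1 by Nup43 (r = 0.90), Msn and Trim2 (both r = 0.82). Most values of Rasd1 were likewise undetected, since its probe was detected on 5 of 16 arrays. Rgs4 was followed by Atpif1, Rpap3 (both r = 0.91) and Nxt2 (r = 0.88), and Rgs16 by Cxxc4, Fam110b and Fam214a (all r = 0.83). Unc5c, like Rasl11b, was highest in CT10, at a mean of 8.35 against 8.13 in CT12 Veh.

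Other members of the families were compared as lists. Of 18 other RGS genes, 6 were measured between CT12 VIP and CT12 Veh and none passed the threshold of limma or an unadjusted p of 0.05, with differences of -0.07 to 0.09 and a median of -0.02 beside -0.01 over all probes, of which 4.19% passed. In each comparison of CT16 VIP 1 RGS gene of 8 or 9 measured passed, beside 1.79%, 2.21% and 2.37% of all probes against CT12 VIP, CT12 Veh and CT10. It was Rgs7, of the R7 group that pairs with G beta 5, which was detected on 4 of 4 CT16 VIP arrays, 3 in CT12 VIP, 1 in CT12 Veh and 2 in CT10. Rgs7 was higher in CT16 VIP than in CT12 VIP by 0.32 (SE 0.07) on the VST scale (limma, adjusted p = 0.0327), and by 1.12 (SE 0.20) against CT12 Veh and 1.04 (SE 0.25) against CT10 on the neqc scale (adjusted p = 0.0159 and 0.0455). Its call depended on single arrays. Against CT12 VIP it was kept only without CT16 VIP 1 or 2, against CT10 only without CT10 1, and against CT12 Veh it was lost without CT12 Veh 3 or 4 (adjusted p up to 0.134, 0.156 and 0.065). Gnb5, the gene of G beta 5, was at -0.01 (SE 0.15) in CT16 VIP against CT12 Veh.

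Of 31 other Ras-like GTPase genes, 19 were measured between CT12 VIP and CT12 Veh, of which 2 rose, 1 fell and 16 did not pass, beside 4.19% of all probes. The rise was 0.34 (SE 0.07) for Rap2a (limma, adjusted p = 0.00459). The other was Rasl11a, the closest relative of Rasl11b (adjusted p = 0.00621), which was detected on 3 CT12 VIP arrays and 0 CT12 Veh arrays, so that it entered the fit only through CT12 VIP and no size is given. A second probe of Rasl11a did not pass. Diras2 fell by 0.37 (difference -0.37, SE 0.09, adjusted p = 0.0258), with its other probe at -0.33 also past the threshold. The calls of Rap2a and Rasl11a were kept without any single array. Since Rasl11a entered only through CT12 VIP, nothing is read from its call being kept. That of Diras2 was lost when CT12 VIP 2, 3 or 4 or vehicle array 2 or 3 was left out (limma adjusted p reaching 0.105). With neqc of the raw signals neither Rap2a (limma adjusted p = 0.0623) nor Diras2 passed. None of 17 to 22 measured Ras-like genes passed between CT12 Veh and CT10 or in the 3 comparisons of CT16 VIP. In these comparisons 0 to 3 were higher and 0 to 2 lower at an unadjusted limma p under 0.05. Beside this, 0% of all probes passed between CT12 Veh and CT10. For CT16 VIP the share was 1.79% against CT12 VIP, 2.21% against CT12 Veh and 2.37% against CT10. Between CT12 VIP and CT10, 1 of 19 measured Ras-like genes passed (Rasl11a), beside 2.57% of all probes.

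**Figure D4:**
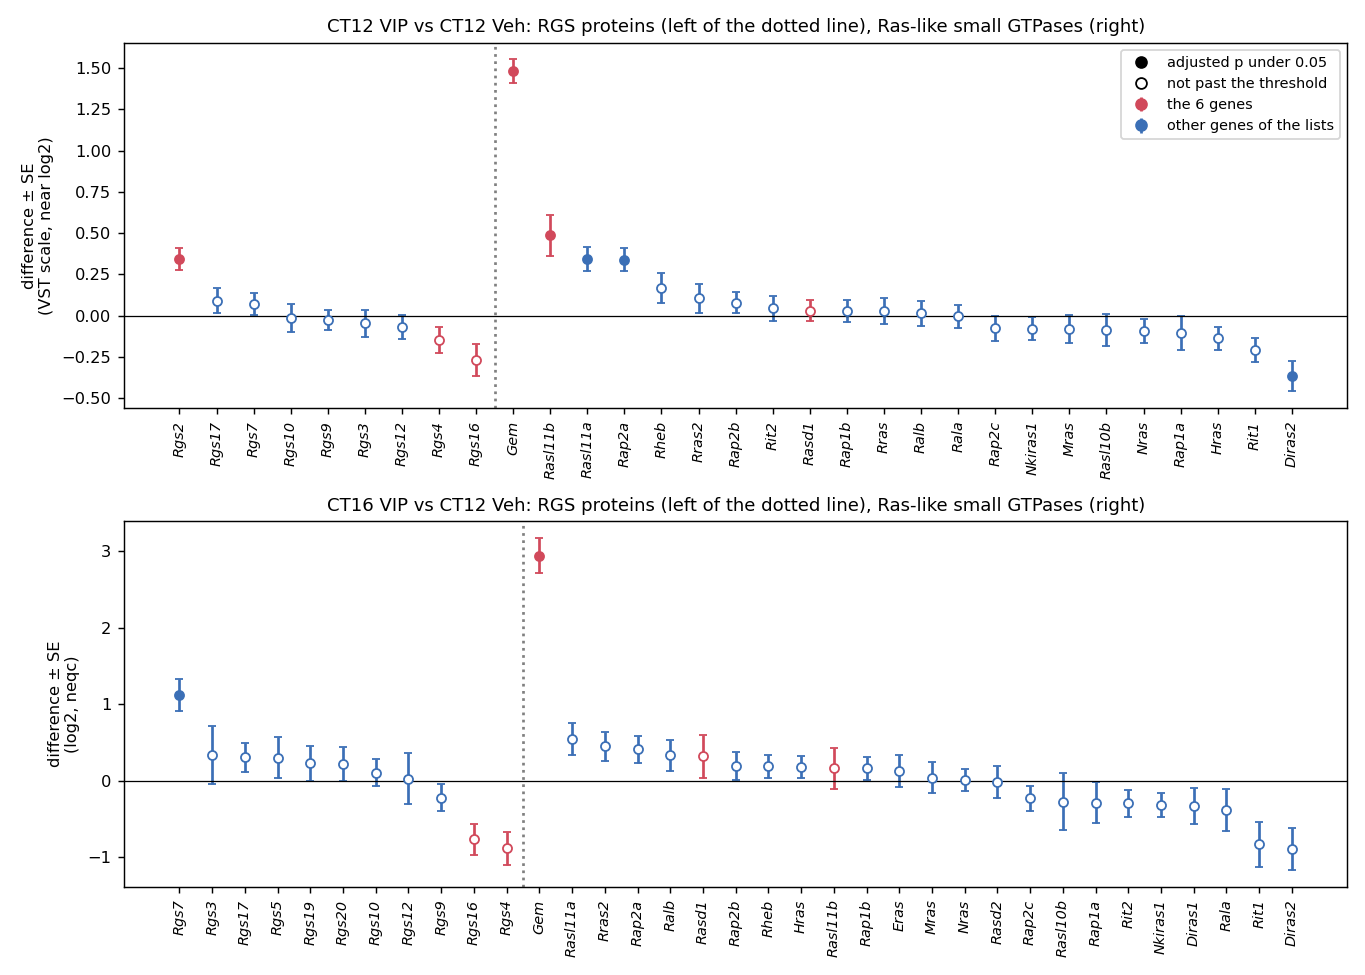
Difference ± SE of every measured RGS gene and Ras-like GTPase gene in CT12 VIP against CT12 Veh (top, VST scale) and CT16 VIP against CT12 Veh (bottom, log2 neqc scale); filled points passed an adjusted p of 0.05, and each gene is its brightest probe. For the genes that were chosen by their values in these groups, the filling is not a test, and nothing is read from it. Gem and, in the top panel, Rgs2 and Rasl11a were undetected in CT12 Veh, so their points are measured values against background. Gem is the highest point in both panels, and among the other genes Rap2a, Rasl11a and Diras2 are filled at the top and Rgs7 at the bottom.

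Among the partners of the 6 genes, 2 calcium channel beta subunits (Cacnb2 at 0.08 and Cacnb4 at 0.05) were measured between CT12 VIP and CT12 Veh. So were 2 RASD1 partners (Nos1ap at 0.00 and Acbd3 at 0.09) and 5 RGS binding partners and GIRK channels. None of them passed, beside 4.19% of all probes, and nothing is read from lists this short. Of the regulators of Ras and Rap, the GTPase activating gene Rasa2 rose by 0.45 (SE 0.06) between CT12 VIP and CT12 Veh (limma, adjusted p = 7.16e-05), and by 1.62 (SE 0.18) between CT16 VIP and CT12 Veh (adjusted p = 0.000585), without any single array deciding the call. It was detected on 2 of 4 CT12 Veh arrays. Other probes of Rasa2 differed by 0.13 to 0.25 at CT12. Sipa1l2, an activator of Rap GTP hydrolysis, rose by 0.31 (SE 0.07, adjusted p = 0.0125), a call lost without CT12 Veh 4 (0.0544). Of 24 G protein subunit genes, 1 fell and 1 rose past the threshold, beside 4.19% of all probes. Gna13 fell by 0.43 (difference -0.43, SE 0.07, limma adjusted p = 0.001), while a second probe differed by -0.05. Gng4 rose by 0.37 (SE 0.09, limma adjusted p = 0.0215), a call kept in 4 of 8 fits with an array left out. The call of Gng4 was lost when CT12 VIP 3 or 4 or vehicle array 1 or 2 was left out. Rapgef3, the exchange factor for Rap that binds cAMP, fell by 0.35 (difference -0.35, SE 0.09, adjusted p = 0.042), a call kept only without CT12 Veh 1 or 3 or CT12 VIP 3.

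Markers of cell types differed in some of these comparisons. Between CT12 VIP and CT12 Veh, 3 of 7 ependymal markers fell, 2 of 9 SCN neuron markers rose (Rora by 0.35 and Rorb by 0.33), 1 of 12 neuron markers rose (Nefl, not detected in CT12 Veh) and none of the astrocyte, oligodendrocyte, microglial or vascular markers passed in limma, each read by its brightest probe, beside 4.19% of all probes. The study lists Rora among the clock genes regulated by VIP, and the other 7 measured SCN neuron markers did not pass. Other probes did pass for Gad1, a neuron marker (2 probes, 0.30 and 0.32), for Aqp4, an astrocyte marker (-0.28), and for the ependymal Rarres2. The mean level of the 7 ependymal markers was 8.15 to 8.31 with vehicle, 7.997 to 8.06 at 2 h after VIP, 7.88 to 8.07 at 6 h and 7.93 to 8.23 without treatment. That of the 12 neuron markers was 8.60 to 8.69, 8.70 to 8.81, 8.65 to 8.71 and 8.65 to 8.78 in the same order. Foxj1, the defining regulator of ependymal cells, was detected on 4 of 16 arrays. Between CT16 VIP and CT12 Veh, 1 of 7 ependymal and 1 of 5 microglial markers fell and 1 of 9 SCN neuron markers (Rorb, by 1.36) and 1 of 12 neuron markers (Nefm, by 1.47) rose, beside 2.21% of all probes. The part of these markers in the values of the 6 genes was not tested.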

How the data were processed

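RNA was amplified before labelling, per the study's methods. The study's authors deposited mean bead intensity per probe, unnormalised, with a detection p-value, for each of the 16 arrays. The authors also deposited 3 tables on a log2 scale, or near it, made with lumi (version not given in the sources used here) by a detection filter, a variance-stabilising transformation and quantile normalisation, over all 16 arrays and for 2 pairs of groups. Groups came from the sample labels. Probes were named through the platform table with symbols updated from RefSeq, which gave 16733 probes 1 gene, and 3160 probes were not in that table.

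Pairs with a deposited pairwise table were fitted on it, and the other 4 on raw signals after neqc over the 8 arrays, with probes detected on at least 1 of them. Every fit was limma (version 3.58.1, R 4.3.3) over all probes, 2-sided, with Benjamini-Hochberg adjustment and a threshold of 0.05. A gene of a list is its brightest probe. A difference against an undetected group is a bound from the lowest detected signal of each array. The fit was tested on simulated data. Arrays give no counts, and their number limits the precision.

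Named are the 6 genes with every probe, up to 4 genes of a list past the threshold with the largest difference in a comparison, and the 3 genes most correlated with each of the 6; any further gene was picked with its values in view. The 6 genes and all lists were chosen with earlier results of these data known. Alternatives were other background corrections, normalisations and detection filters, all 16 arrays in 1 fit, a replicate block, the number of detected probes, and leaving out arrays.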

Additional observations from a re-analysis of the deposited data

Results flagged for a closer look

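In 5 of 80 sets of 4 arrays examined, 1 array stood apart from the other 3 by Dixon's test of its gap to the nearest of them. Chance flags about 1 in 20 such sets. Rasl11b on its dimmer probe was at 9.231 on CT10 4, below 9.497 to 9.531 on the other CT10 arrays, while the brighter probe read 9.82 there. Rgs16 was at 7.995 on CT16 VIP 4, the array with the fewest detected probes, below 8.12 to 8.142. Of the genes outside the 6, Gna13 was at 8.641 on CT12 VIP 3, above 8.361 to 8.383. Rasa2 was at 7.688 on CT10 3, above 7.605 to 7.615, and Sipa1l2 was at 8.388 on CT16 VIP 3, below 8.544 to 8.57.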

How the results depend on the processing

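The number of arrays and the brightness of the probes limit these values: Gem, Rgs2 and Rasd1 were detected on 8, 3 and 5 of 16 arrays. Over all probes of the 6 genes and the brightest probe of each listed gene that passed, no alternative reversed a direction past the threshold. Cell markers, correlated genes and second probes of listed genes were not followed through the alternatives. For the 6 genes, 551 of 598 values under another setting or with an array left out stayed on their side of an adjusted p of 0.05, 10 no longer passed and 37 newly passed. Nothing is read from this, since the 6 genes were chosen by their values. For these listed genes, all past an adjusted p of 0.05 at first, 274 of 382 values still passed and 108 did not. The cause was not tested, except that settings with fewer arrays have less power by construction.

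In this paragraph and the next, a setting is listed where it changed a count more than 1.5-fold, or to or from 0. The count of probes past the threshold between CT12 VIP and CT12 Veh, 738, was 487 with neqc and 452 with all 16 arrays in 1 fit (548 to 653 with an array left out). The remaining settings ran from 527 without the arrays of few detected probes to 909 with each array's number of detected probes in the model. Between CT16 VIP and CT12 VIP, 342 became 175 with neqc, 516 with all 16 arrays, 159 with the replicate block and 616 with each array's number of detected probes in the model, here the covariate (189 to 454). Between CT12 Veh and CT10, 0 became 1 with log2 quantile values and 1 with global values (0 to 0). Between CT16 VIP and CT12 Veh, 414 became 666 with global values, 836 with all 16 arrays, 180 with the replicate block, 140 without the arrays of few detected probes and 656 with the covariate (194 to 767). Between CT16 VIP and CT10, 445 became 921 with all 16 arrays, 137 with the replicate block and 708 with the covariate (235 to 592). Between CT12 VIP and CT10, 453 became 145 with the replicate block (294 to 519).

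The count of other RGS and Ras-like genes past the threshold was 3 between CT12 VIP and CT12 Veh and 1 with neqc (2 to 3 with an array left out). It was 1 between CT16 VIP and CT12 VIP and 0 with the replicate block or without the arrays of few detected probes (0 to 1). It was 1 between CT16 VIP and CT12 Veh and 0 in the same 2 settings (0 to 2). Between CT16 VIP and CT10 it was 1, and 2 with log2 quantile values, all 16 arrays, the covariate or the mean of a gene's probes, and 0 without a filter on detection, with the replicate block or without the arrays of few detected probes (0 to 1). Between CT12 VIP and CT10 it was 1 and 2 with log2 quantile or global values (1 to 1), and between CT12 Veh and CT10 it was 0 throughout (0 to 0).

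Samples with the same replicate number did not deviate together, with correlations of -0.324 to 0.287, so the numbers were not taken as pairs. With the replicate block, Rasl11b on its brighter probe no longer passed between CT16 VIP and CT10, and Rgs2 no longer passed between CT12 VIP and CT10. The dimmer probe of Rasl11b passed between CT12 VIP and CT12 Veh with that block.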
